A study of Mus musculus with 8 samples.

Results

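Evx1, Wnt5a and 8 other genes of the primitive streak, namely T, Mixl1, Eomes, Fgf8, Wnt3, Lhx1, Gsc and Mesp1, were followed across pre-iPSCs that carried Nanog, Sin3a, both or neither as transgenes. Every probe annotated to these 10 symbols was taken and kept apart, which gave 15 of the 45281 probes on the array and covered 9 of the 10 genes, since no probe analysed here carried the symbol T. Evx1 and Wnt5a were selected on their measured intensity with Nanog against empty vectors, which earlier results of the same arrays had shown to be high, and the other 8 by their known role. The values of Evx1 and Wnt5a in the comparisons of both Nanog groups with empty vectors are therefore a description and were not tested, and the same was done for the other members. The pre-iPSCs are mouse cells halted before reprogramming is complete, derived here from female neural stem cells of strain 129/MF1 and carrying an Oct4-GFP-IRES-puro reporter. All groups were grown in serum with LIF, carried stably integrated PiggyBac vectors with the CAG promoter, went through selection with hygromycin and/or blasticidin, and were sampled at day 0. The groups were Nanog with Sin3a (written Nanog+Sin3a), Nanog with an empty vector (Nanog), Sin3a with an empty vector (Sin3a) and empty vectors alone (EV), with 2 Illumina arrays each. The labels do not say whether the arrays of a group came from separate cultures, so a p-value here speaks only of array-to-array spread, which may be technical.

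The primitive streak is the strip of the early embryo through which epiblast cells leave to become mesoderm and endoderm. Wnt3 from the epiblast and extraembryonic tissue, together with Nodal and BMP signals, sets it up, and cells within it switch on the T-box factors T and Eomes and the homeobox factors Mixl1, Gsc, Lhx1 and Evx1. Fgf8 drives cells out of the streak, Mesp1 marks the earliest cardiac mesoderm, and Wnt5a, a ligand that mostly signals without beta-catenin, shapes the elongating body axis. Cultured embryonic stem cells pass through such a state when they begin to form mesendoderm, and Nanog is a homeodomain factor of the pluripotent state before it.

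Because Evx1 alone among these genes was bright, its promoter is shown with those of Eomes and Mesp1, streak genes that stayed near background. Each sequence runs 5′ to 3′ from 250 bases before to 50 bases after the RefSeq start of the gene on build GRCm38.p6, and capitals mark every match, on either strand, to 6 short motifs.
Evx1: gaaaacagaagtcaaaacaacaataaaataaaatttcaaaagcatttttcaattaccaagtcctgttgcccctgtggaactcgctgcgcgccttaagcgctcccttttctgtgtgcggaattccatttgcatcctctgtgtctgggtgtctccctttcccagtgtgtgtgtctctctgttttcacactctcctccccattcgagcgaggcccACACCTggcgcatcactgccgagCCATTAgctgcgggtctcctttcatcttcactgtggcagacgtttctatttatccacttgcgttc
Eomes: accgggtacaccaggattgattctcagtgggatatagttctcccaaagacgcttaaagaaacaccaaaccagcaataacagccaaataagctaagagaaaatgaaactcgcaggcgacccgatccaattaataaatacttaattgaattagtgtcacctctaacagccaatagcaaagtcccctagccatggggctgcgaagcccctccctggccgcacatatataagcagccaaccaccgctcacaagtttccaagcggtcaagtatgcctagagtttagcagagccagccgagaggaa
Mesp1: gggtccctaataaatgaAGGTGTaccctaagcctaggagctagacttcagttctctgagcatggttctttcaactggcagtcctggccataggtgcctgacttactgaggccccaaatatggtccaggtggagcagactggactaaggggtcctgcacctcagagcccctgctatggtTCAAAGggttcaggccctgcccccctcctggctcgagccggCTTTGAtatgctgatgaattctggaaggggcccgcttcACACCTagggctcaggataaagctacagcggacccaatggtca
The Evx1 window is chr6:52313248-52313547 on the plus strand, the Eomes window chr9:118477939-118478238 on the plus strand and the Mesp1 window chr7:79793541-79793840 on the minus strand. The motifs were TAATGG, the core bound by Nanog, TAATTA, bound by many homeodomains, CTTTGA for TCF/LEF factors, AGGTGT as a T-box core, GGGCGG as a GC box and TATAAA as a TATA box, and no matches shown overlap. The Evx1 window held 1 TAATGG match, read as CCATTA starting 15 bases before the gene start, and 1 AGGTGT match, read as ACACCT starting 38 bases before it. Mesp1 held 2 matches to CTTTGA and 2 to AGGTGT, and Eomes held none of the 6. Among the 7 members with a listed promoter, Evx1 was the only one with TAATGG, which 7.73% of all 32851 promoters of that length contained, while AGGTGT was in 3 of the 7, against 13.7% of all. The 3 were Evx1, Mesp1 and T. Wnt5a, Mixl1 and Fgf8 had no listed promoter, so their promoters were not searched. A match of letters is a description and not evidence of binding.

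Intensities had a background subtracted by the authors, so values scatter around 0 where no signal is seen. They were raised to 16 where lower, a level called the floor (4 on the log2 scale), and a probe was tested when it exceeded the floor on at least 2 arrays. The second Sin3a array was noisy at low intensity. Of the 22484 probes at or below 16 on the other 7 arrays, it read 24.3% above 16, and the same share for each other array was 1.37% to 4.06%. It was therefore left out of the main fit, which used 7 arrays and 18558 probes and rested the Sin3a group on its first array. Arrays of a group correlated across tested probes at r = 0.982 for Nanog+Sin3a, 0.985 for Nanog, 0.817 for Sin3a and 0.992 for EV. Both transgenes were seen. The brighter Nanog probe read 290 and 285 with Nanog+Sin3a and 365 and 486 with Nanog, against -7.30 and -12.2 with Sin3a and -3.60 and -5.40 with EV. The other Nanog probe did not show this. It read 5.60 and 13.6 with Nanog+Sin3a and 21.0 and 13.0 with Nanog, against 10.2 and -4.80 with Sin3a and 14.4 and 13.8 with EV. The Sin3a probe read 1485 and 1483 with Nanog+Sin3a and 1182 and 1142 with Sin3a, against 344 and 473 with Nanog and 329 and 262 with EV.

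Most of the primitive streak genes were not measurably expressed in any group. On the 7 arrays, Mixl1, Fgf8, Wnt3, Lhx1, Gsc and Mesp1, or 6 of the 9 genes with a probe, lay at or below 16 on every array and every probe, with values from -19.3 to 14.0 over 9 probes. Over all probes on the array, 49.7% were likewise never above 16, and 11 of the 15 member probes were. Eomes, the T-box factor of mesendoderm, crossed the floor once, at 19.4 on the first Nanog array, where the second Nanog array read -8.40. Of the 15 probes, 3 passed the filter and were tested, 1 of Evx1 and 2 of Wnt5a.

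Among the genes that signal in the streak, Wnt3 read -0.700 and -11.4 with Nanog+Sin3a, 9.60 and -3.5 with Nanog, -16.9 on the first Sin3a array and -15.7 and -3.90 with EV. Fgf8 had its highest values on these 7 arrays in its second probe, 14.0 and 4.5 with Nanog+Sin3a, -12.1 and 7.70 with Nanog, -12.0 on the first Sin3a array and -15.4 and -5.90 with EV. All of these lie at or below the floor, so the groups have no order.

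The second Sin3a array gave Wnt3 at 105, the Fgf8 probes at 97.7 and 42.7 and 1 Eomes probe at 29.7, each alone above 16. It read 9.31% of the probes at or below 16 elsewhere above 64, against 0% to 0.00564% for the other 7 arrays. Whether these single high values are noise of that array was not tested probe by probe.

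Among the transcription factors, Mixl1, a homeobox gene of mesendoderm, ran from -19.3 to 4.10 on the 7 arrays over its 2 probes. Lhx1, a LIM homeobox factor of the anterior streak, ran from -18.9 to -2.00 over 2 probes, Gsc, the organiser homeobox factor goosecoid, from -14.4 to 9.0, and Mesp1 from -17.2 to 9.0. Gsc and Mesp1 each reached 9.0 on 1 array only, the first Nanog+Sin3a array for Gsc and the second Nanog array for Mesp1. None of these values exceeded the floor.

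**Figure D1:**
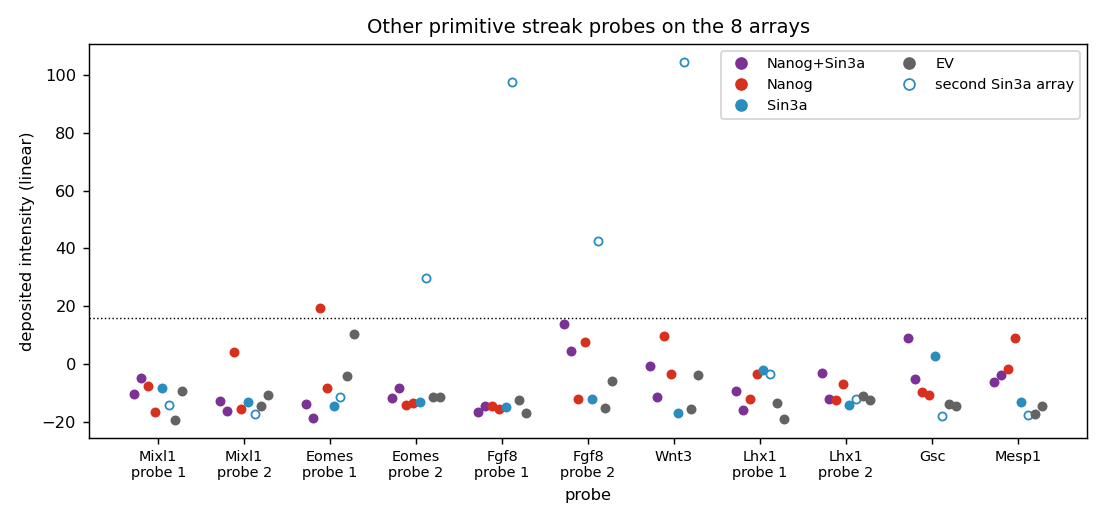
Deposited intensity (linear axis) of the 11 probes of Mixl1, Eomes, Fgf8, Wnt3, Lhx1, Gsc and Mesp1, with 1 point per array coloured by group and a dotted line at the floor of 16. On the 7 filled arrays only 1 Eomes point, at 19.4, lies above the line, and the open points of the second Sin3a array reach 105.

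Evx1, an even-skipped homeobox factor of the posterior streak, was the exception. Its probe read 297 and 344 with Nanog+Sin3a and 392 and 322 with Nanog, against 34.0 and -0.400 with Sin3a and 28.7 and 26.5 with EV. All 4 arrays with the Nanog transgene lay near 300 or above, the 4 without it at 34.0 or below, and the 2 kinds of array did not overlap. In EV the probe was above the floor on both arrays, so Evx1 had a low signal without Nanog. On the linear scale the group means were 320.5 ± 33.8 with Nanog+Sin3a and 357 ± 49.0 with Nanog, against 27.6 ± 1.56 with EV (SD, n = 2 each). On the log2 scale the difference from EV was 3.53 with Nanog+Sin3a and 3.69 with Nanog, or 11.6-fold and 12.9-fold, and it is given without a test because it served to choose the gene.

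Wnt5a was lower in intensity and depended on the probe. The brightest of its 3 probes read 51.3 and 39.7 with Nanog+Sin3a and 76.3 and 82.6 with Nanog, against -8.20 and 14.0 with Sin3a and -14.6 and -2.20 with EV. Only the 4 arrays with Nanog exceeded the floor, and they did not overlap with the others. Since the EV arrays were at the floor, the differences are lower bounds, at least 2.82-fold with Nanog+Sin3a and at least 4.96-fold with Nanog, again without a test.

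The second Wnt5a probe read 14.7 and 21.2 with Nanog+Sin3a and 35.2 and 6.60 with Nanog, against 9.90 and -10.4 with Sin3a and -1.70 and -15.7 with EV. It exceeded the floor on 1 array of each Nanog group, so the groups overlapped at the floor. The dimmest, designed on another transcript record, stayed between -13.6 and 5.80 on all 8 arrays. The annotation gives no probe positions, so their places in the transcript are not given here.

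Over the 18558 tested probes, 11.3% had all 4 arrays with Nanog above the 3 without it, and 2 of the 3 tested member probes did. The Evx1 gap was wide. Its lowest array with Nanog lay 3.12 (log2) above its highest array without, and 8 probes, 0.0431% of those tested, had a gap of at least 2. Nanog itself was first among the 8 and Evx1 second, followed by a probe with no symbol and by Nptx2, Sprr2d, Igfbp6, Sh3rf2 and Anxa8. These genes were listed after their values were seen, and since Evx1 was chosen for this very contrast, its rank is a description. The rank also rests on the floor. Nanog, the probe with no symbol, Nptx2, Sprr2d and Igfbp6 lay at or below 16 on the 3 arrays without Nanog, so their gaps are lower bounds. Evx1 lay above 16 there, so some of these gaps may be wider than that of Evx1.

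**Figure D2:**
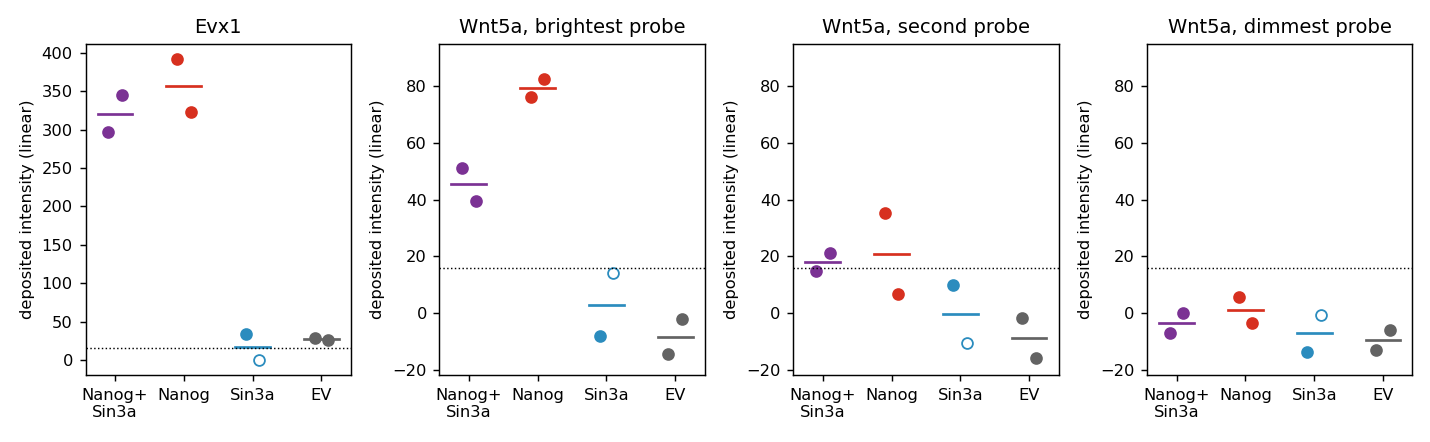
Deposited intensity (linear axis, a wider range for Evx1) of the Evx1 probe and the 3 Wnt5a probes by group, with points for arrays, bars for the mean of 2 arrays, the second Sin3a array open and a dotted line at 16. Evx1 lies at 297 to 392 on the arrays with Nanog, and the brightest Wnt5a probe exceeds 16 only on those arrays.

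What Sin3a adds to Nanog was a contrast that did not itself choose the genes, but it shares the Nanog arrays whose high values did. That choice favours a lower value with Nanog+Sin3a than with Nanog, and both tested Wnt5a probes passed the filter only through arrays with Nanog, so the differences are given as a description, without a test. Evx1 differed between Nanog+Sin3a and Nanog by -0.15 on the log2 scale (SE 0.16, and -0.29 to -0.01 when 1 array was left out), or 0.899 as a fold. The brightest Wnt5a probe had a lower mean with Nanog+Sin3a than with Nanog, at a log2 difference of -0.81 (SE 0.21), or 0.568 as a fold. Fits that left out 1 array gave differences of -1.0 to -0.63 for this probe. The second Wnt5a probe differed by -0.37 (SE 0.37), and by -0.93 to -0.16 in the 5 fits without 1 array in which it was above the floor often enough to enter. Over all tested probes limma called 0.0162% in this comparison, with 1937 of 18558 at an unadjusted p under 0.05. The called ones were 3 probes, all of the glutathione S-transferases Gsta1 and Gsta2, named after their values were seen.

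Sin3a alone against EV asks whether the corepressor scaffold acted on these genes without Nanog, and since it shares the EV arrays with the choice of genes it is described in the same way. On the first Sin3a array Evx1 read 34.0, against 28.7 and 26.5 with EV, a log2 difference of 0.30 (SE 0.20). The error assumes that the lone Sin3a array varies like the other groups. With all 8 arrays the difference was -0.24 (SE 0.49), because the second Sin3a array read -0.400. The brightest and second Wnt5a probes were at the floor in both groups, so no fold is given. Limma passed 0% of all tested probes here, with 658 of 18558 at an unadjusted p under 0.05. Evx1 was high with Nanog and with Nanog+Sin3a, whose arrays overlapped, and far lower on the first Sin3a array and with EV. Neither the order of Nanog and Nanog+Sin3a nor that of Sin3a and EV was tested.

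Genes around these members in the same pathways were taken from 7 lists of 146 genes, of which 60 were above the floor on at least 2 arrays. Nanog against EV called 0 of the 60 up and 3 down, and Nanog+Sin3a against EV called 4 up and 2 down, while neither Nanog+Sin3a against Nanog nor Sin3a against EV called any in limma. By probes these were 4.88% and 8.54% of the 82 tested, and over all tested probes limma called 2.04% with Nanog and 5.87% with Nanog+Sin3a against EV. The median difference over all tested probes was 0 in each comparison. The 2 comparisons with EV share the EV arrays.

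The streak and mesoderm list had 30 genes, 29 with a probe, and 8 were tested. In all 4 comparisons 0 of the 8 rose, 0 fell and 8 did not pass. Its median log2 difference was 0.19 with Nanog+Sin3a and 0.19 with Nanog against EV. Nodal, the TGF-beta family signal that patterns the streak, read 31.0 and -0.500 with Nanog+Sin3a and 23.5 and 17.0 with Nanog, against 14.1 and -9.80 with EV. Chrd, the BMP antagonist chordin of the node, read 15.4 and 45.4 with Nanog+Sin3a and 30.6 and 32.3 with Nanog, against 24.5 and 20.2 with EV. For both genes the Nanog+Sin3a arrays overlapped with the EV arrays and the Nanog arrays lay above them, and neither gene passed. A second Nodal probe stayed at or below 3.0 on all 8 arrays.

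Of the 17 other Wnt ligands, 4 were above the floor, and 1, Wnt7a, rose with Nanog+Sin3a. It read 111 and 79.8 with Nanog+Sin3a, against 30.8 and 38.7 with EV (log2 1.45, SE 0.25, adjusted p = 0.0294 in limma). With Nanog it read 39.0 and 48.7, and did not pass against EV. Wnt5b, the closest relative of Wnt5a, read 16.7 and -4.10 with Nanog+Sin3a and 19.5 and 42.5 with Nanog, against 11.9 and 11.1 with EV, and did not pass in any of the 4 comparisons.

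Of 16 tested genes for Wnt receptors and planar cell polarity, through which Wnt5a acts, 0 rose and 1 fell with Nanog, and 1 rose and 1 fell with Nanog+Sin3a. The gene that fell in both was Fzd3, a Frizzled receptor of planar polarity. Its brightest called probe read 8.40 and -7.90 with Nanog+Sin3a and 15.2 and 15.1 with Nanog, against 41.6 and 41.4 with EV and 34.2 on the first Sin3a array. All 4 arrays with Nanog were at the floor, so the log2 difference of -1.38 against EV (SE 0.17) is the least change, with adjusted p = 0.0123 for Nanog+Sin3a and 0.0190 for Nanog in limma. Values raised to the floor have no spread, and the probe entered the test only through arrays without Nanog. These adjusted p are therefore only a description. With a floor of 32 the difference was -0.38 and did not pass (adjusted p = 0.0664 for Nanog+Sin3a and 0.0976 for Nanog in limma). A second Fzd3 probe fell with Nanog+Sin3a (log2 -0.92, adjusted p = 0.0464 in limma), was at -0.91 with Nanog (adjusted p = 0.0769), and the remaining Fzd3 probe was at -0.06 in both. With a floor of 32 the second probe was at -0.05 with Nanog+Sin3a (adjusted p = 0.795 in limma). Prickle2, a cytoplasmic planar polarity protein, rose with Nanog+Sin3a. It read 28.1 and 33.5 with Nanog+Sin3a and 28.7 and 28.9 with Nanog, against 12.1 and 6.60 with EV, where it was at the floor (log2 at least 0.94 with Nanog+Sin3a, SE 0.18, adjusted p = 0.0389 in limma). With Nanog the difference was at least 0.85 and did not pass (adjusted p = 0.0806). Apart from the arrays with Nanog, this probe exceeded the floor only on the first Sin3a array, at 18.1. It entered the test through the arrays with Nanog, so its adjusted p is only a description. Its 2 other probes were at or below 13.2 on the Nanog+Sin3a and Nanog arrays.

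Among 6 tested Wnt targets and antagonists, 0 passed in any comparison, and the median log2 difference was 0.21 with Nanog+Sin3a and 0.23 with Nanog against EV. Wif1, a secreted Wnt inhibitor, had the largest difference and read 36.3 and 97.7 with Nanog+Sin3a and 48.0 and 46.1 with Nanog, against 24.1 and 18.1 with EV. Of 13 tested Nodal and BMP genes, 1 fell with each, namely Id2, an inhibitor of helix-loop-helix factors that BMP signals induce. Its brighter called probe read 98.3 and 111 with Nanog+Sin3a and 91.0 and 88.3 with Nanog, against 193 and 244 with EV. The log2 difference was -1.06 with Nanog+Sin3a (SE 0.16, adjusted p = 0.0205) and -1.28 with Nanog (adjusted p = 0.0190), both in limma. Of its 2 other probes, 1 fell with Nanog (log2 -1.24, adjusted p = 0.0490 in limma) and the other was at -0.68 and did not pass (0.123). With Nanog+Sin3a these 2 probes were at -0.41 and -0.31 and did not pass (adjusted p = 0.312 and 0.353 in limma). Id1 and Id3, related genes of the same list, lay the other way and did not pass. Against EV, Id3 was at 0.46 with Nanog+Sin3a and 0.72 with Nanog, and Id1 at 0.22 and 0.14.

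Of 8 tested FGF ligands and receptors, 1 rose with Nanog+Sin3a and 0 passed with Nanog. It was Fgfr3, an FGF receptor, at 60.3 and 42.6 with Nanog+Sin3a and 26.5 and 43.4 with Nanog, against 15.5 and 12.7 with EV, where it was at the floor (log2 at least 1.66 with Nanog+Sin3a, SE 0.30, adjusted p = 0.0316 in limma). The called probe exceeded the floor only on the arrays with Nanog and entered the test through them. Its adjusted p is therefore only a description. With a floor of 32 its difference was 0.66 and did not pass (adjusted p = 0.0813 in limma). Another Fgfr3 probe stayed at or below 10.3 on all 8 arrays. The pathway calls numbered 11 over both comparisons with EV, counted by probe. With all 8 arrays 0 of the 11 remained, at adjusted p of 0.151 to 1. Without either EV array or either Nanog+Sin3a array 0 remained, and without either Nanog array 1 did, the first Fzd3 probe for Nanog+Sin3a. Adjusted p over those 6 fits ran from 0.0411 to 0.346. Against EV limma called 0 of all tested probes in both comparisons without either EV array. Without either Nanog+Sin3a array it called 0 with Nanog+Sin3a and 6 with Nanog, and without the first and the second Nanog array 209 and 473 with Nanog+Sin3a and 0 with Nanog. When 1 array was left out the difference ran from -1.38 to -1.37 for the first Fzd3 probe, from -1.10 to -0.74 for the second and from 1.21 to 1.68 for Wnt7a, all with Nanog+Sin3a.

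**Figure D3:**
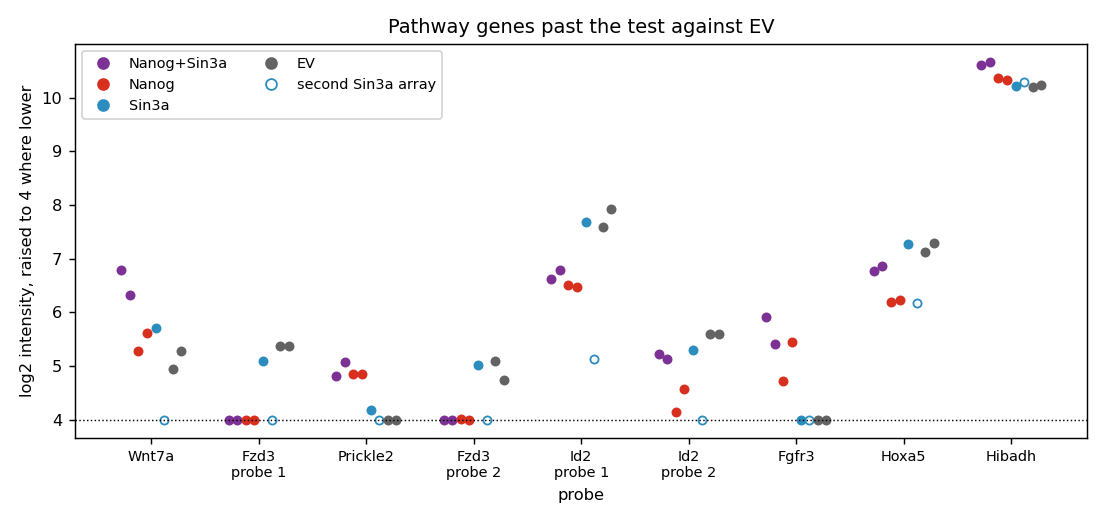
Log2 intensity, raised to 4 where lower, of the 9 probes of pathway genes that passed in a comparison with EV, with 1 point per array, the second Sin3a array open and a dotted line at the floor. The Fzd3 probes lie at or beside the floor on the arrays with Nanog, and Wnt7a is highest on the 2 Nanog+Sin3a arrays.

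Evx1 lies at the end of the HoxA cluster, beyond Hoxa13, with Hibadh on its other side. Of its 10 nearest protein-coding neighbours, 5 on each side, all 10 had a probe and 4 were above the floor on at least 2 arrays. Their log2 differences ran from 0.07 to 0.68 with Nanog+Sin3a and from 0.10 to 0.30 with Nanog against EV, where Evx1 stood at 3.53 and 3.69. Hoxa13 read 48.0 and 54.1 with Nanog+Sin3a and 41.2 and 37.5 with Nanog, against 30.3 and 33.5 with EV in its brightest probe, and did not pass. Hibadh, a mitochondrial enzyme of valine breakdown, rose with Nanog+Sin3a (log2 0.41, SE 0.08, adjusted p = 0.0351 in limma). Hoxa5, a Hox factor further along the cluster, fell with Nanog, at 72.8 and 75.3 against 140 and 156 with EV (log2 -1.0, SE 0.14, adjusted p = 0.0255 in limma), and with Nanog+Sin3a read 109 and 116. Hibadh and Hoxa5 were among the 11 calls that were lost with all 8 arrays. Of the 10 neighbours of Wnt5a, 9 had a probe and 8 were tested.

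The probes most like Evx1 were ranked by Pearson's r of log2 values over 7 arrays among 3273 named probes with a range of at least 1. The first 10 were Hspa12b (r = 0.998), Sh3rf2 (0.995), Cbx7 (0.994), Nptx2 (0.993), Nanog (0.992), Gpr1 (0.988), Ccdc120 (0.988), Spire2 (0.987), Pdpn (0.987) and Sphk1 (0.986). Hspa12b, of the Hsp70 family, read 160 and 164 with Nanog+Sin3a and 165 and 162 with Nanog, against 45.7 and 41.2 with EV. Cbx7, a chromodomain subunit of Polycomb complexes, read 62.7 and 62.6 with Nanog+Sin3a and 65.7 and 66.0 with Nanog, against 32.7 and 31.0 with EV. Pdpn, the surface glycoprotein podoplanin, read 91.7 and 130 with Nanog+Sin3a and 122 and 90.5 with Nanog, against 21.1 and 26.8 with EV. Altogether 97 probes reached r of 0.95, so a split of 4 arrays against 3 was a common pattern. These r values rest on few arrays that share 2 transgene states, and carry no p.

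The brightest Wnt5a probe correlated with Evx1 at r = 0.948 and ranked 109th in that list. Both genes were chosen for high values with Nanog on these arrays, and Wnt5a was at the floor without Nanog. A high r was therefore favoured by the choice and is only a description. The probes most like Wnt5a were Haao (r = 0.991), Irf1 (0.991), Eno3 (0.990), Gdf3 (0.988) and Loxl4 (0.988). Haao, an enzyme of tryptophan breakdown, read 81.7 and 51.9 with Nanog+Sin3a and 110 and 135 with Nanog, against 22.7 and 18.1 with EV. Gdf3, a TGF-beta family ligand of pluripotent cells, read 1467 and 1250 with Nanog+Sin3a and 1613 and 1894 with Nanog, against 948 and 911 with EV.

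**Figure D4:**
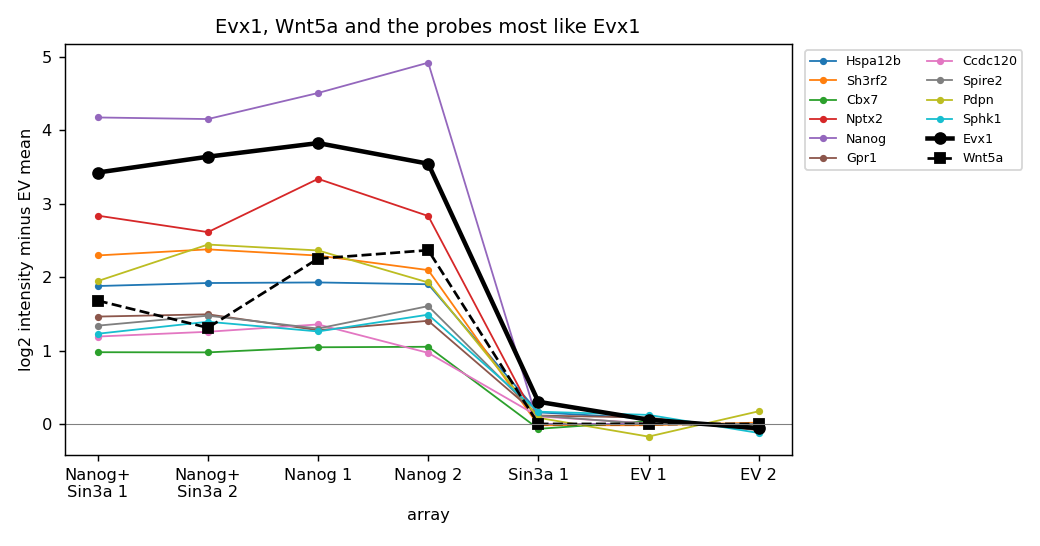
Log2 intensity minus the EV mean on 7 arrays for Evx1 (thick line), the brightest Wnt5a probe (dashed) and the 10 named probes most like Evx1 (thin lines). Evx1 stands 3.43 to 3.83 above the EV mean on the 4 arrays with Nanog, and only Nanog lies higher.

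Of 5 lists of markers of other cell types, 2 had sums that separated the arrays with Nanog from those without on the 7 arrays, and this was not tested. The 7 fibroblast and mesenchyme markers summed to 434 to 491 with Nanog+Sin3a and 509 to 549 with Nanog, against 239 on the first Sin3a array and 216 to 239 with EV. Thy1 made up most of each sum, and 4 of the 7, namely Col1a2, Lum, Postn and Pdgfrb, were at the floor on all 7 arrays. The neural stem cell markers, 6 of 7 with a probe, summed to 432 to 459 with Nanog+Sin3a and 454 to 511 with Nanog, against 799 with Sin3a and 722 to 765 with EV. Egfr made up most of each sum. Nes was the only other marker above the floor, with Olig2, Fabp7, Pax6 and Slc1a3 at it. The part of either list in the Evx1 and Wnt5a values was not tested, and in bulk RNA a change in the number of cells of a type and a change in RNA per cell cannot be told apart. All 6 endoderm markers, Sox17 and Foxa2 among them, were at the floor on all 7 arrays. The 8 embryonic stem cell markers summed to 274 to 345 with Nanog+Sin3a and 241 to 331 with Nanog, against 292 on the first Sin3a array and 230 to 263 with EV. The Nanog arrays overlapped with the EV arrays, and the Nanog+Sin3a arrays lay above the EV arrays. Among them Klf4 and Dppa5a were above the floor on all 7, and Dppa3, Esrrb and Nr0b1 were never above it. Trophectoderm markers summed to 939 to 1246 with Nanog+Sin3a and to 868 on both Nanog arrays, against 1119 with Sin3a and 1162 to 1168 with EV, nearly all of it Krt8. The Nanog+Sin3a arrays spanned the EV values.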

How the data were processed

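Total RNA was labelled as biotinylated cRNA and measured on Illumina bead arrays, per the labels. The deposited values are probe intensity from GenomeStudio, per the submitters' processing notes, with version and settings not given in the sources used here. They are linear, with 47.3% to 47.7% below 0, so a background had been subtracted, and ranked values above 16 on 7 arrays stayed within 0.618% of their mean (4.14% for the second Sin3a array), so they were taken as normalized by the authors. Symbols came from the platform annotation, which names 34885 probes by 1 symbol, names 18 by several and leaves 10378 unnamed. The number of arrays limits precision.

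Values were raised to 16 and converted to log2, and each probe was kept apart. R 4.3.3 with limma 3.58.1 fitted 1 coefficient per group to 7 arrays (3 residual degrees of freedom), with eBayes and an intensity trend, two-sided, Benjamini-Hochberg over 18558 probes at 0.05. The second Sin3a array was left out for its noise below 512. Groups of 2 are too small for a permutation test to reach 0.05. Alternatives were all 8 arrays, a floor of 32, no filter, quantile normalization, median centring, no trend, a replicate block and leaving out each array. The procedure was also run on simulated data, with changes added only to brighter probes, so that run does not cover probes near the floor in EV such as those of Evx1 and Wnt5a.

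The members, lists, left-out array and rules were chosen with earlier results of these data known. Named were all members, the transgenes, list genes past the test with the largest change (up to 4 per list, or up to 2 where none passed), and the 10 and 5 probes most like Evx1 and Wnt5a. Tests planned for the members in the other comparisons are not given, since these share arrays with the choice of genes. The neighbouring genes and the gap between arrays were added after seeing the data. For 1 neighbour of Wnt5a the result is not reported here. Promoter sequences are from RefSeq, build GRCm38.p6, with 7 of 10 members matched.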

Additional observations from a re-analysis of the deposited data

How the results depend on the processing

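Counts of called probes moved with most settings. For Nanog+Sin3a against Nanog the count of 3 became 0 with all 8 arrays, 18 with a floor of 32, 20 without a filter, 0 with a replicate block, and 0 to 8 when 1 array was left out. For Sin3a against EV the count of 0 (658 at an unadjusted p under 0.05 in limma) became 1 with a floor of 32 and 400 without a filter, and stayed 0 in the 6 fits that left out 1 array other than the first Sin3a array, without which there is no Sin3a array to compare. For Nanog against EV the 378 became 0 with all 8 arrays, 601 with a floor of 32, 31 without a filter, 196 with a replicate block, and 0 to 426 when 1 array was left out. For Nanog+Sin3a against EV the 1090 became 27 with all 8 arrays, 75 without a filter, 573 with a replicate block, and 0 to 1183 when 1 array was left out. The count was 0 without either Nanog or either EV array for Nanog against EV, and 0 without either Nanog+Sin3a or either EV array for Nanog+Sin3a against EV. Fewer arrays leave fewer residual degrees of freedom, and otherwise the cause was not tested. Evx1 in Sin3a against EV reversed to -0.24 with all 8 arrays. With a floor of 32 the Evx1 difference from EV was 3.32 with Nanog+Sin3a and 3.47 with Nanog, and that of the brightest Wnt5a probe was 0.50 and 1.31, since a higher floor raises the EV level. When 1 array was left out, the Nanog minus EV difference ran from 3.55 to 3.83 for Evx1 and from 2.25 to 2.37 for the brightest Wnt5a probe, and the Nanog+Sin3a minus EV difference from 3.43 to 3.64 and from 1.31 to 1.68. Same-numbered arrays of Nanog+Sin3a, Nanog and EV deviated with r of -0.05 to -0.02, so no pairing by number was seen. This r is taken over all tested probes, those near the floor among them, and cannot show that the arrays are unpaired. Of the 11 pathway calls, 4 remained with the replicate block, 6 of 10 with a floor of 32, 1 without a filter, 10 with quantile normalization, 11 with median centring and 10 without the trend, and 0 reversed under these. The 4 lost with a floor of 32 were the Fzd3 calls and that of Fgfr3. Low signal limits the streak genes, whose levels at or below 16 cannot be ordered.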
